A study of Mus musculus with 20 samples.

Results

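Piwil1, Piwil2, Mael, Ddx4 and Tdrd1 encode proteins of the piRNA pathway and of the germ granules of male germ cells. They were taken by name, through all probe sets that the chip annotation gives to a single gene. Each of the 5 genes had 1 such probe set, and all of them were among the 15762 genes tested. RNA was measured in whole testes from 2 inbred mouse strains, C57BL/6 and AKR/N, at an age of 8 weeks, with no transgene or mutant allele named in the labels. Each strain had controls that were not heated, and groups collected 8, 10, 12 or 24 h after a heat shock, which was 15 min at 43 °C. An Affymetrix mouse expression chip, on which a probe set of short oligonucleotides reads each transcript, was used on 20 samples, with 2 samples in each of 10 groups. The labels do not say whether the 2 samples of a group came from different mice, so the spread behind each p-value, between these samples only, may be technical.

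PIWI proteins are Argonaute proteins of the germ line that carry piRNAs, small RNAs that guide the silencing of transposons and the cleavage of other transcripts. In mouse testes some piRNAs are made before meiosis and others, far more abundant, in pachytene spermatocytes. Much of the machinery sits in germ granules, which are RNA and protein bodies that lie between mitochondria in spermatocytes and form the chromatoid body in round spermatids. Piwil1 (MIWI) is the PIWI protein of pachytene spermatocytes and round spermatids, and Piwil2 (MILI) acts from fetal germ cells to round spermatids. Ddx4 (mouse VASA homologue) is an RNA helicase of these granules, Tdrd1 is a Tudor domain scaffold that binds methylated arginines of PIWI proteins, and Mael (maelstrom) is needed for the silencing of transposons.

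The promoters of the members are shown because 3 of the 5 members, Piwil1, Ddx4 and Tdrd1, were called lower 24 h after heat in C57BL/6. RefSeq sequences of GRCm38.p6, from 250 bases before the transcription start to 50 after it, were at hand for Piwil1, Mael, Ddx4 and Tdrd1. They lie at chr5:128735996-128736295 on the plus strand, chr1:166238695-166238994 on the minus strand, chr13:112652261-112652560 on the minus strand and chr19:56825959-56826258 on the plus strand, the first of 3 annotated starts of Tdrd1. Capitals mark CACGTG, the E-box, which reads the same on both strands and is bound by basic helix-loop-helix proteins.
Piwil1: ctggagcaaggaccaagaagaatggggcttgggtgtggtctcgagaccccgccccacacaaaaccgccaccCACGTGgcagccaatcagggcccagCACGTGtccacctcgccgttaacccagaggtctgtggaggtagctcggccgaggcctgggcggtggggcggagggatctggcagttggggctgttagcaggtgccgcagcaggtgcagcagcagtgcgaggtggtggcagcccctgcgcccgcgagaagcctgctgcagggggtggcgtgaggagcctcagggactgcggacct
Mael: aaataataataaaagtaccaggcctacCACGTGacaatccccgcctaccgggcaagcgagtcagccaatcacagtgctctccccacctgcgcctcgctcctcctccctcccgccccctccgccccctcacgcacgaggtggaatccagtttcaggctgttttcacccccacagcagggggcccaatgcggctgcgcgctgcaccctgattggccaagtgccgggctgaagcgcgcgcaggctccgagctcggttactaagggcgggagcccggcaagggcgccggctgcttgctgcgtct
Ddx4: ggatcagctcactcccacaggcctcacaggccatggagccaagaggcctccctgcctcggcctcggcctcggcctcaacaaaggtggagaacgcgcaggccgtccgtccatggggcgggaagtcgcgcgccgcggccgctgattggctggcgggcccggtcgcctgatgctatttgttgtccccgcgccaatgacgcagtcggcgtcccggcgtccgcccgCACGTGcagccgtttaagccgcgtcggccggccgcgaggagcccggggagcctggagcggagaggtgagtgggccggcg
Tdrd1: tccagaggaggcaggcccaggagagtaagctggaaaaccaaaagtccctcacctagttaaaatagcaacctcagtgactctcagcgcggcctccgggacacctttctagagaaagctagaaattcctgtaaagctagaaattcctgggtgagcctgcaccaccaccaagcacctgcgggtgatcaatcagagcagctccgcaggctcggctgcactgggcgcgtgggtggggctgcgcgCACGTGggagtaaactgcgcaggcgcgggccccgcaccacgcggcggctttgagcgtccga

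All 4 promoters held the E-box, which was found in 7.24% of the 27025 genes with a promoter sequence, with the first listed start of each gene searched. It began at -179 and -154 from the start in Piwil1, at -223 in Mael, at -29 in Ddx4 and at -11 in Tdrd1, and of the other starts of Tdrd1, not shown, the second held it and the third did not. Among the other genes of the pathway listed below, 6 of the 23 with a promoter held it (Tdrd9, Stk31, Mov10l1, Fkbp6, Wdr77 and Ddx25). Mael, whose promoter holds the same letters, did not pass the test in any comparison below. Piwil2 did not pass either, and its promoter was not at hand. Any part of the E-box in the changes was not tested. The E-box was 1 of 8 motifs searched on both strands after expression values had been seen. AACTGNC, a MYB motif, was in the promoter of Piwil1 but not in those of Mael, Ddx4 and Tdrd1, against 12.9% of genes, and its looser form AACNGNC was in 2 of the 4 (Piwil1 and Mael) against 32.8%. CAACTG, a short MYB motif that overlaps AACTGNC by 5 letters, was in that of Piwil1 as well, against 13.6%. TTCNNGAA, the core of the heat shock element, was in 0 of the 4 (8.4% of genes), as was TGACGTCA, the cAMP response element (1.88%). TGACG, contained in the latter, was in 1 of the 4, Ddx4 (21.0%), and the GC box GGGCGG in 3, all but Tdrd1 (35.9%). A match describes the letters in this window and is not a site of binding.

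Median signals per array were 24.9 to 34.9 in this series. Replicate arrays correlated with r of 0.97 to 0.988, across genes that do not count as independent replicates. Beta-actin's 3'/5' ratio, which rises as RNA degrades, ran from 1.87 to 3.57. C57BL/6 12 h replicate 2 gave the 3.57, beside 2.52 on replicate 1, and also the highest median signal (34.9). The ratio was 2.14 and 2.46 in C57BL/6 controls and 2.84 and 2.58 at 24 h. In AKR/N it was 2.92 and 2.39 in controls, 1.91 and 1.93 at 8 h, 1.87 and 1.99 at 10 h and 2.14 and 2.17 at 24 h. The ratio thus moved in opposite directions in the strains between control and 24 h, and its part in the results below was not tested. Values below are signals on the linear scale of the deposited table. Changes are differences of group means of log2(signal + 16), each with the standard error (SE) of a limma fit to all 20 arrays and a p adjusted by the Benjamini-Hochberg method over 15762 genes. Genes with an adjusted p below 0.05 were called. The 4 heated times of a strain are set against the same 2 controls.

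**Figure D1:**
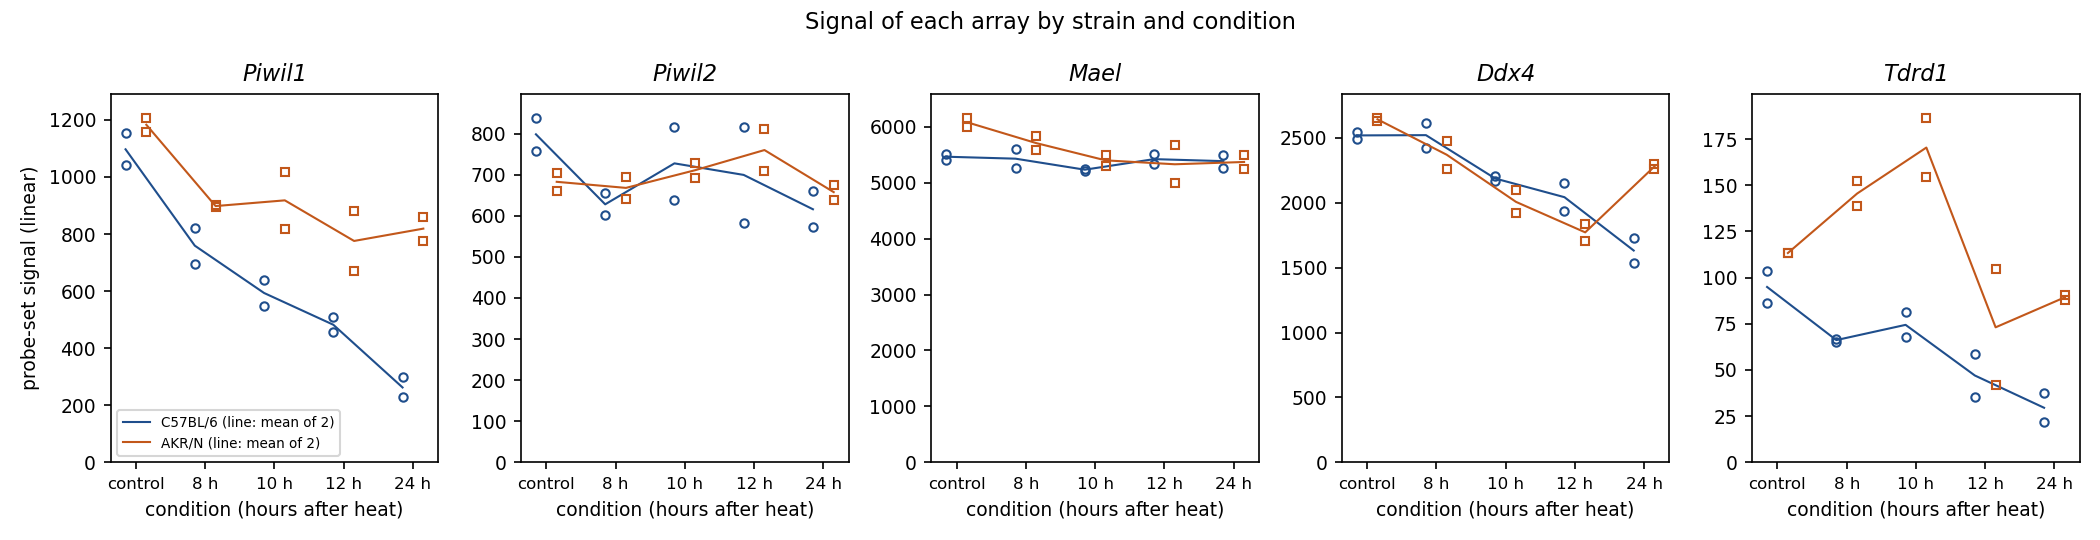
Probe-set signal of the 5 members on each array (linear scale from 0), by condition, with C57BL/6 as circles, AKR/N as squares and lines through the means of 2 arrays. Piwil1 ran from 1097 to 262 in C57BL/6 from control to 24 h and from 1183 to 819 in AKR/N, while Mael stayed between 4988 and 6164 on all arrays.

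Piwil1, the PIWI protein of pachytene piRNAs, showed the largest change of the members. Its signals in C57BL/6 were 1153 and 1041 in controls, 696 and 823 at 8 h, 638 and 549 at 10 h, 508 and 456 at 12 h and 227 and 297 at 24 h. Each later time lay below the earlier one with no overlap between arrays. The differences from the control were -0.52 at 8 h (SE 0.17, adjusted p = 0.44), -0.87 at 10 h (adjusted p = 0.00759), -1.16 at 12 h (adjusted p = 0.001) and -2.01 at 24 h (SE 0.17, adjusted p = 4.55e-06). Piwil1 was thus called lower from 10 h on and was 4.02-fold lower at 24 h, with a 95% confidence interval of -2.37 to -1.64 on the log2 scale. At 8 h it was not called, though its interval was -0.89 to -0.16, so the calls do not date the start of the fall. The call at 10 h ended without C57BL/6 10 h replicate 2 (-0.76, adjusted p = 0.0638) and without replicate 1 of the C57BL/6 control (-0.80, 0.0675).

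In AKR/N the signals of Piwil1 were 1208 and 1158 in controls, 894 and 903 at 8 h, 1019 and 818 at 10 h, 671 and 880 at 12 h and 777 and 861 at 24 h. All 8 heated arrays lay below both controls, and the groups at 12 and 24 h overlapped with each other. The differences from the control were -0.39 (adjusted p = 0.469), -0.37 (adjusted p = 0.264), -0.61 (SE 0.17, adjusted p = 0.0464) and -0.52 (SE 0.17, adjusted p = 0.0394) at the 4 times. Piwil1 was called at 12 and 24 h, where it was 1.53-fold and 1.44-fold lower. At 12 h the adjusted p ran from 0.0144 to 0.288 over 28 alternatives, 10 of which kept the call. It ended without AKR/N 12 h replicate 1 or any 1 of the control, 8 h and 24 h arrays of AKR/N and the control, 8 h and 10 h arrays of C57BL/6. At 24 h the adjusted p ran from 0.0141 to 0.166 with 18 of 28 that kept the call, which ended without any 1 of the AKR/N control, 24 h and 8 h arrays (adjusted p between 0.0527 and 0.166).

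Piwil2, the PIWI partner of Tdrd1, did not pass the test at any time in either strain. In C57BL/6 its signals were 758 and 839 in controls, 602 and 654 at 8 h, 816 and 640 at 10 h, 816 and 583 at 12 h and 572 and 660 at 24 h. The arrays at 8 and 24 h lay below both controls, while those at 10 and 12 h overlapped with them. The difference at 24 h was -0.37 (SE 0.16, 95% confidence interval -0.72 to -0.02, adjusted p = 0.0935). In AKR/N its signals were 661 and 705 in controls, 641 and 695 at 8 h, 693 and 729 at 10 h, 708 and 812 at 12 h and 640 and 676 at 24 h. The AKR/N groups overlapped with the control except at 12 h, where the difference was 0.15 (adjusted p = 0.624). At 24 h the AKR/N difference was -0.05, with an interval of -0.40 to 0.30.

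Ddx4, the helicase of the germ granules, was called lower at 24 h in C57BL/6 and at 12 h in AKR/N. In C57BL/6 its signals were 2544 and 2493 in controls, 2425 and 2616 at 8 h, 2203 and 2171 at 10 h, 2151 and 1935 at 12 h and 1537 and 1728 at 24 h. The 8 h arrays lay around the controls, and from 10 h on all arrays lay below them. The difference was -0.30 at 12 h (adjusted p = 0.0766) and -0.62 at 24 h (SE 0.11, adjusted p = 0.000698), which was 1.54-fold lower and called. In AKR/N the signals were 2630 and 2656 in controls, 2479 and 2261 at 8 h, 1918 and 2096 at 10 h, 1709 and 1834 at 12 h and 2302 and 2258 at 24 h. The AKR/N arrays were lowest at 12 h and at 24 h lay above all arrays of 10 and 12 h. The AKR/N differences were -0.40 at 10 h (adjusted p = 0.0765), -0.57 at 12 h (SE 0.11, adjusted p = 0.0109) and -0.21 at 24 h (adjusted p = 0.192). The 12 h difference, 1.49-fold lower, was called. That call ended with median centring (adjusted p = 0.055) and without AKR/N 12 h replicate 1 (-0.52, adjusted p = 0.0937), replicate 1 (0.0548) or replicate 2 (0.0517) of the AKR/N control.

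Tdrd1, the Tudor scaffold, gave a low signal. In C57BL/6 it read 104 and 86.4 in controls, 65.3 and 67.0 at 8 h, 81.2 and 67.7 at 10 h, 58.7 and 35.3 at 12 h and 21.6 and 37.5 at 24 h. All heated arrays lay below both controls, and those at 24 h came near the signal of 17.5 under which a gene was taken as dim. The difference was -0.84 at 12 h (SE 0.28, adjusted p = 0.0503, called under 8 of 28 alternatives) and -1.30 at 24 h (SE 0.28, adjusted p = 0.0023), so that Tdrd1 was called at 24 h, 2.47-fold lower. That change depended on the pseudocount, with -0.77 at a pseudocount of 64 and -1.70 at 1, both called.

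In AKR/N Tdrd1 read 114 and 113 in controls, 139 and 152 at 8 h, 187 and 154 at 10 h, 41.7 and 104 at 12 h and 87.8 and 90.9 at 24 h. The arrays at 8 and 10 h lay above both controls and those at 12 and 24 h below, and the 12 h pair was the widest apart. The AKR/N differences were 0.32, 0.52, -0.63 and -0.30 at the 4 times, none of them called (adjusted p = 0.733, 0.347, 0.179 and 0.479). Without AKR/N 12 h replicate 2 the 12 h difference was -1.16 and was called (adjusted p = 0.0187), and without replicate 1 it was -0.10.

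Mael, the factor of transposon silencing, did not pass in any comparison. Its C57BL/6 signals were 5411 and 5519 in controls, 5262 and 5598 at 8 h, 5212 and 5254 at 10 h, 5339 and 5505 at 12 h and 5499 and 5272 at 24 h. The difference at 24 h was -0.02 (SE 0.10), with a 95% confidence interval of -0.25 to 0.20. In AKR/N the signals were 6164 and 5998 in controls, 5831 and 5586 at 8 h, 5504 and 5297 at 10 h, 4988 and 5671 at 12 h and 5254 and 5487 at 24 h. All heated AKR/N arrays lay below both controls, with differences of -0.09, -0.17, -0.19 and -0.18 (adjusted p between 0.236 and 0.804). In C57BL/6 the 8, 12 and 24 h arrays overlapped with the controls, and both 10 h arrays lay below them (-0.06, adjusted p = 0.767).

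**Figure D2:**
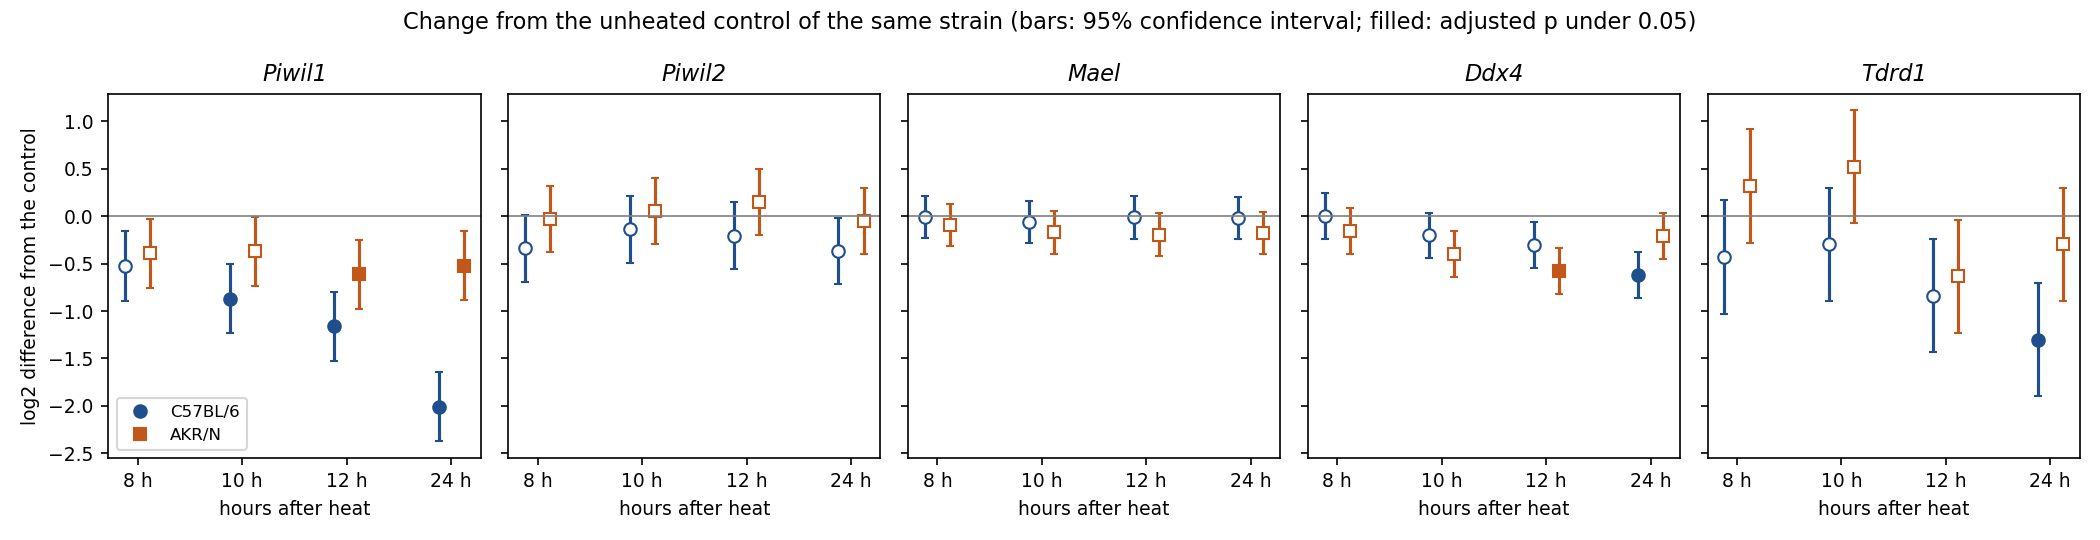
Log2 difference of each member from the unheated control of its strain at 8, 10, 12 and 24 h, with 95% confidence intervals. C57BL/6 is drawn as circles and AKR/N as squares, and filled symbols mark an adjusted p under 0.05. Piwil1 runs to -2.01 in C57BL/6 at 24 h, and Ddx4 in AKR/N is lowest at 12 h (-0.57) and back at -0.21 at 24 h.

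Counted together, limma called 0 of the 5 members at 8 h in either strain, where 0.0888% of all genes were called in C57BL/6 and 0.0381% in AKR/N, and 1 member in each strain had an unadjusted p under 0.05. In C57BL/6, 1 member was lower at 10 h (5.19% of all genes), 1 at 12 h (9.38%) and 3 at 24 h (16.6%), and 0 members were higher. The median of the 5 differences at 24 h was -0.62, beside 0.08 over all genes. At 24 h in C57BL/6, 56.2% of the called genes were higher, and 43.6% with median centring, which moved the median of all genes by -0.12. In AKR/N, 0 members were called at 10 h (2.63% of all genes in either direction, and 2 members at an unadjusted p under 0.05), 2 were lower at 12 h (3.2%) and 1 at 24 h (11.1%), with medians of -0.57 at 12 h and -0.21 at 24 h beside -0.01 over all genes at both times. With 5 members, 1 call is 20% of them, so the counts of 1 say little against these shares. In whole testes, fewer cells of a type and less RNA per cell cannot be told apart.

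The heat effect was then set between the strains. At 24 h the change of Piwil1 was 1.49 higher in AKR/N than in C57BL/6 (SE 0.24, 95% confidence interval 0.97 to 2, adjusted p = 0.0189), the only member for which that difference was called. Over all genes 1.76% were called in that comparison, 53.4% of them higher in AKR/N and 68.8% with median centring. These were 277 genes, and between 2 and 344 with 1 array left out, so that the count itself rested on single arrays of every control, 24 h and 8 h group. The adjusted p ran from 0.00223 to 0.0713 over 27 alternatives. The call ended without AKR/N 24 h replicate 1 (0.0713), AKR/N control replicate 1 (0.0594), C57BL/6 24 h replicate 1 (0.0703), C57BL/6 control replicate 1 (0.062) or C57BL/6 control replicate 2 (0.056), with the difference between 1.30 and 1.56 in these cases. For Tdrd1 the difference at 24 h was 1.01 (interval 0.16 to 1.85, adjusted p = 0.18), for Ddx4 0.41 (0.07 to 0.75, adjusted p = 0.175), for Piwil2 0.31 (-0.18 to 0.81) and for Mael -0.16 (-0.47 to 0.16). At 8, 10 and 12 h no member was called for a difference between strains, and over all genes 0, 0.0317 and 0% were called, while 0, 0 and 1 members had an unadjusted p under 0.05. Tdrd1 lay above its controls in AKR/N and below them in C57BL/6 at 8 and 10 h, with differences between the strains of 0.75 (interval -0.10 to 1.59, adjusted p = 0.899) and 0.82 (interval -0.03 to 1.66, adjusted p = 0.426).

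**Figure D3:**
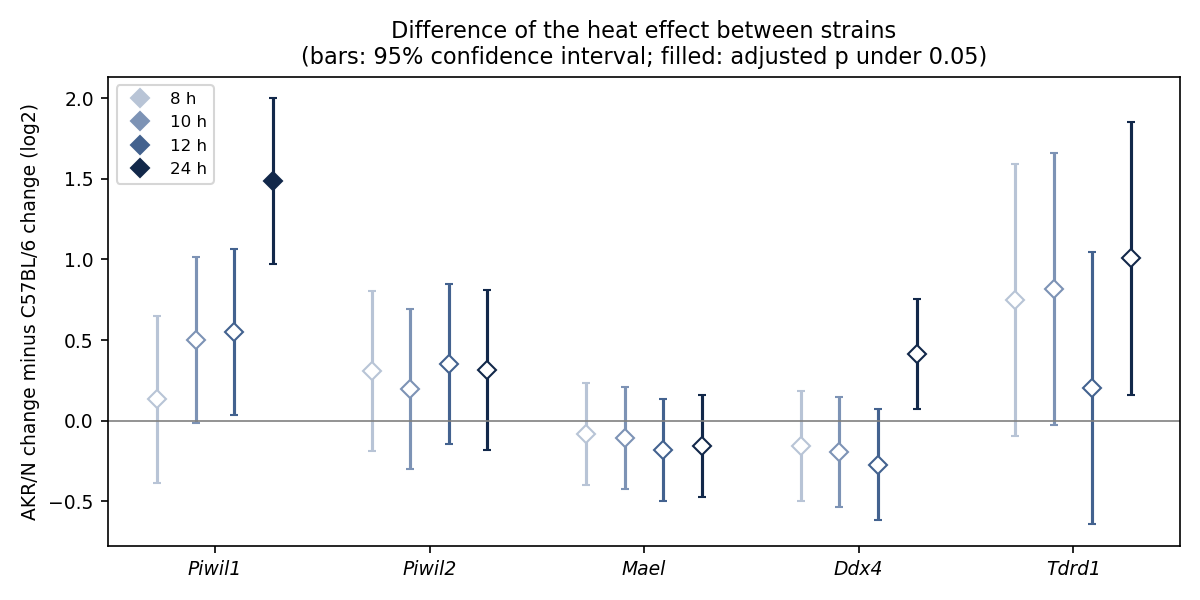
Change in AKR/N minus change in C57BL/6 (log2) for each member at 8, 10, 12 and 24 h, with 95% confidence intervals. Only Piwil1 at 24 h is filled (adjusted p under 0.05), at 1.49, and the intervals of Mael and Piwil2 include 0 at all 4 times.

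Between 12 and 24 h, a comparison that uses no control array, Piwil1 fell further in C57BL/6, by 0.85 (SE 0.17, adjusted p = 0.00874), where 3.99% of all genes were lower. Without C57BL/6 24 h replicate 1 that call ended (-0.67, adjusted p = 0.103). In AKR/N the difference of Piwil1 was 0.09 (adjusted p = 0.781), and limma called 0 of 5 members beside 10.1% of all genes, with 1 at an unadjusted p under 0.05. Ddx4 differed between 12 and 24 h by -0.32 in C57BL/6 (adjusted p = 0.0888) and by 0.36 in AKR/N (adjusted p = 0.0572). The difference between these changes was 0.68 (SE 0.16, interval 0.34 to 1.02), a test added after the values had been seen, and it was not called (adjusted p = 0.137). It was called for 0 of 5 members in limma, 2 of which had an unadjusted p under 0.05, beside 0.0508% of all genes.

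Unheated testes of the strains did not differ detectably in the members, with 0 of 5 called by limma, or with an unadjusted p under 0.05, beside 6.29% of all genes. AKR/N minus C57BL/6 was 0.11 for Piwil1 (interval -0.25 to 0.47), -0.22 for Piwil2, 0.15 for Mael, 0.07 for Ddx4 and 0.22 for Tdrd1 (interval -0.37 to 0.82). Averaged over control and heated conditions, 2 members were higher in AKR/N, beside 14.9% of all genes. These were Piwil1, by 0.64 (SE 0.08, adjusted p = 2.35e-05), and Tdrd1, by 0.78 (SE 0.12, adjusted p = 0.000328). Both held under all 27 alternatives, while Piwil2 (0.02), Mael (0.05) and Ddx4 (0.03) were not called.

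The members did not follow 1 course over the 10 group means. Pearson's r was 0.84 between Piwil1 and Tdrd1 and 0.75 between Piwil1 and Ddx4, but 0.10 between Piwil2 and Ddx4 and -0.14 between Piwil2 and Mael. These describe points that share arrays. The genes most like Piwil1 in this measure were Cfap54, 1700029M20Rik and Slc12a5 (r of 0.99, 0.98 and 0.98), and those most like Ddx4 were Fam217b, Lhx9 and Zfp367 (0.95, 0.94 and 0.94). Nearest to Tdrd1 stood Cntrl, Xrn1 and Fyttd1 (0.98, 0.97 and 0.95), and nearest to Piwil2 BC051142, Wwc2 and Pygo2 (0.92, 0.85 and 0.84). Mael was matched by Cmtm8, Zfp940 and Ces2e (0.91, 0.90 and 0.90), whose mean signals of 24.4, 15.2 and 5.48 are dim.

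Other genes of the pathway and of germ granules were taken from a list of 32, of which 29 had a single-gene probe set and 28 were tested. Piwil4, the PIWI protein of nuclear silencing in fetal germ cells, lay between 0.269 and 16.7 on the 20 arrays and was not tested. At 24 h in C57BL/6, 10 of the 28 were lower and 2 higher (35.7 and 7.14%, beside 16.6 and 21.4% of all genes), with a median of -0.30. Without C57BL/6 control replicate 2 the lower calls numbered 6. At 24 h in AKR/N, 4 were lower and 2 higher (14.3 and 7.14%, beside 11.1 and 12.3%), with a median of -0.04. There the lower calls numbered 2 with median centring, without AKR/N 24 h replicate 2 and without either AKR/N 8 h array, and the higher calls numbered 0 without AKR/N 24 h replicate 2 and 1 without either AKR/N control array. The earlier times gave 2 lower at 10 h (7.14%, beside 5.19% of all genes) and 5 at 12 h (17.9%, beside 9.38%) in C57BL/6, and 0 at 10 h (beside 1.19%) and 2 at 12 h (7.14%, beside 3.2%) in AKR/N. At these times 0 genes were higher, and at 8 h 0 were called in either strain (4 and 2 at an unadjusted p under 0.05). These counts and those by role below use each gene's brightest probe set. At 24 h in C57BL/6, Rnf17 gave -0.547, -0.337 and -0.71 on its other tested probe sets against 0.321. Asz1 gave -0.467 against -0.231, and Wdr77 -0.502 and 0.695 against -0.014. At 24 h in AKR/N, Ddx6 gave 0.425 and 1.105 against 0.083. In limma fitted to all single-gene probe sets, -0.547, -0.71, -0.467, 0.695 and 1.105 were called. That fit also ended 24 h calls given by gene in this text. In AKR/N these were Piwil1 (adjusted p = 0.0521), Tdrd5 (0.0573) and Tdrd7 (0.0528). In C57BL/6 the brightest probe set of Dicer1 lost its call (0.0556).

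Among the biogenesis factors, 4 of 7 (57.1%) were lower at 24 h in C57BL/6, beside 16.6% of all genes, and 1 of 7 (14.3%) in AKR/N, near the 11.1% of all genes. Pld6, the mitochondrial nuclease that starts the processing of precursors, read 548 and 556 in C57BL/6 controls and 158 and 119 at 24 h, and fell by 1.89 (SE 0.16, adjusted p = 4.34e-06). In AKR/N Pld6 read 435 and 339 in controls and 195 and 213 at 24 h, and fell by 0.87 (SE 0.16, adjusted p = 0.00233). Henmt1, the methyltransferase of piRNA ends, read 82.4 and 104 in C57BL/6 controls and 29.3 and 18 at 24 h, and fell by 1.47 (SE 0.19, adjusted p = 6.92e-05). In AKR/N Henmt1 read 72.2 and 77.4 in controls and 74.9 and 64.9 at 24 h, a difference of -0.08 (adjusted p = 0.8). The size for Henmt1 depended on the pseudocount, with -0.84 in C57BL/6 and a strain difference of 0.79 at 64, and -1.97 and 1.87 at 1, all called. The 24 h arrays of C57BL/6 thus lay far below their controls for both genes, and those of AKR/N only for Pld6. The strain difference of the 24 h change was called for Henmt1 (1.39, SE 0.27, adjusted p = 0.0271) and Pld6 (1.03, SE 0.22, adjusted p = 0.0404), 2 of 28 genes or 7.14%, beside 1.76% of all genes. Both calls ended without any 1 of the 8 control and 24 h arrays (adjusted p between 0.0526 and 0.107 for Henmt1 and between 0.0613 and 0.116 for Pld6), and that of Pld6 also without any 1 of the 4 arrays at 8 h. Exd1, which acts with Tdrd12 on piRNA production, fell in C57BL/6 by 0.73 (adjusted p = 0.000661). In AKR/N Exd1 differed by -0.31 and was not called. Its strain difference of 0.42 was called under 0 of 27 alternatives.

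Of the other Tudor domain genes, 4 of 7 fell at 24 h in C57BL/6 (57.1%, beside 16.6% of all genes) and 2 of 7 in AKR/N (28.6%, beside 11.1%). Tdrd5, needed for pachytene piRNAs, fell at 24 h by 0.90 in C57BL/6 (adjusted p = 0.000147) and by 0.40 in AKR/N (adjusted p = 0.0389). Tdrd7, a chromatoid body protein, fell by 0.75 (adjusted p = 0.00168) and 0.47 (adjusted p = 0.0384). A dim further probe set of Tdrd7, at a mean signal of 7.52, differed by 0.69 and -0.29, so that the mean of both gave -0.03 in C57BL/6 and -0.38 in AKR/N, neither of them called. The AKR/N calls ended for Tdrd5 with median centring (adjusted p = 0.107) and when any 1 AKR/N control, 24 h or 8 h array was left out, and for Tdrd7 with median centring (0.101) and without AKR/N control replicate 2, AKR/N 24 h replicate 2 or either AKR/N 8 h array.

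Mybl1 (A-MYB), the transcription factor of pachytene piRNA clusters and of several genes of the pathway, read 67.7 and 72.7 in C57BL/6 controls and 42.0 and 27.6 at 24 h. It fell by 0.78 (SE 0.25, adjusted p = 0.0264). Its dimmer probe set, at a mean signal of 15.3, gave -0.71, not called in limma fitted to all single-gene probe sets (adjusted p = 0.0738). On the brighter one the change was -0.45 at a pseudocount of 64 and -1.02 at 1. Leaving out C57BL/6 24 h replicate 2 ended the call (-0.57, adjusted p = 0.185), as did leaving out replicate 1 (0.0759) or replicate 2 (0.113) of the C57BL/6 control. In AKR/N Mybl1 read 56.3 and 72.6 in controls and 65.2 and 62.3 at 24 h, a difference of -0.01 (interval -0.55 to 0.54), and the strain difference was 0.77 (interval 0.00 to 1.54, adjusted p = 0.256).

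Tex15, a factor of nuclear silencing, rose at 24 h in both strains, by 0.68 in C57BL/6 (adjusted p = 0.00257) and 0.59 in AKR/N (adjusted p = 0.0119). The AKR/N call ended without AKR/N 24 h replicate 2 (adjusted p = 0.0829) or AKR/N control replicate 1 (adjusted p = 0.0729). Dicer1, the nuclease of microRNAs, was higher in C57BL/6 by 0.62 (adjusted p = 0.0456), a call lost under 22 of 28 alternatives, 16 of them with 1 of the 20 arrays left out, though its other probe set was higher by 0.95. At a pseudocount of 64 the change of Dicer1 was 0.39. Btbd18, needed for transcription of pachytene piRNA clusters, rose in AKR/N by 0.64 (adjusted p = 0.0151) and lost its call without AKR/N 24 h replicate 2 (0.171) or AKR/N control replicate 2 (0.118). At a pseudocount of 64 the change of Btbd18 was 0.36, still called. Btbd18 read 39.7 and 29.3 in AKR/N controls and 52.8 and 73.1 at 24 h. In C57BL/6 it read 51.0 and 62.2 in controls and 59.1 and 64.3 at 24 h, a difference of 0.10. The strain difference of 0.54 was called under 0 of 27 alternatives. Ybx2, which binds stored mRNAs of germ cells, fell in AKR/N by 0.71 (adjusted p = 0.00142) and differed by -0.30 in C57BL/6 (adjusted p = 0.06).

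**Figure D4:**
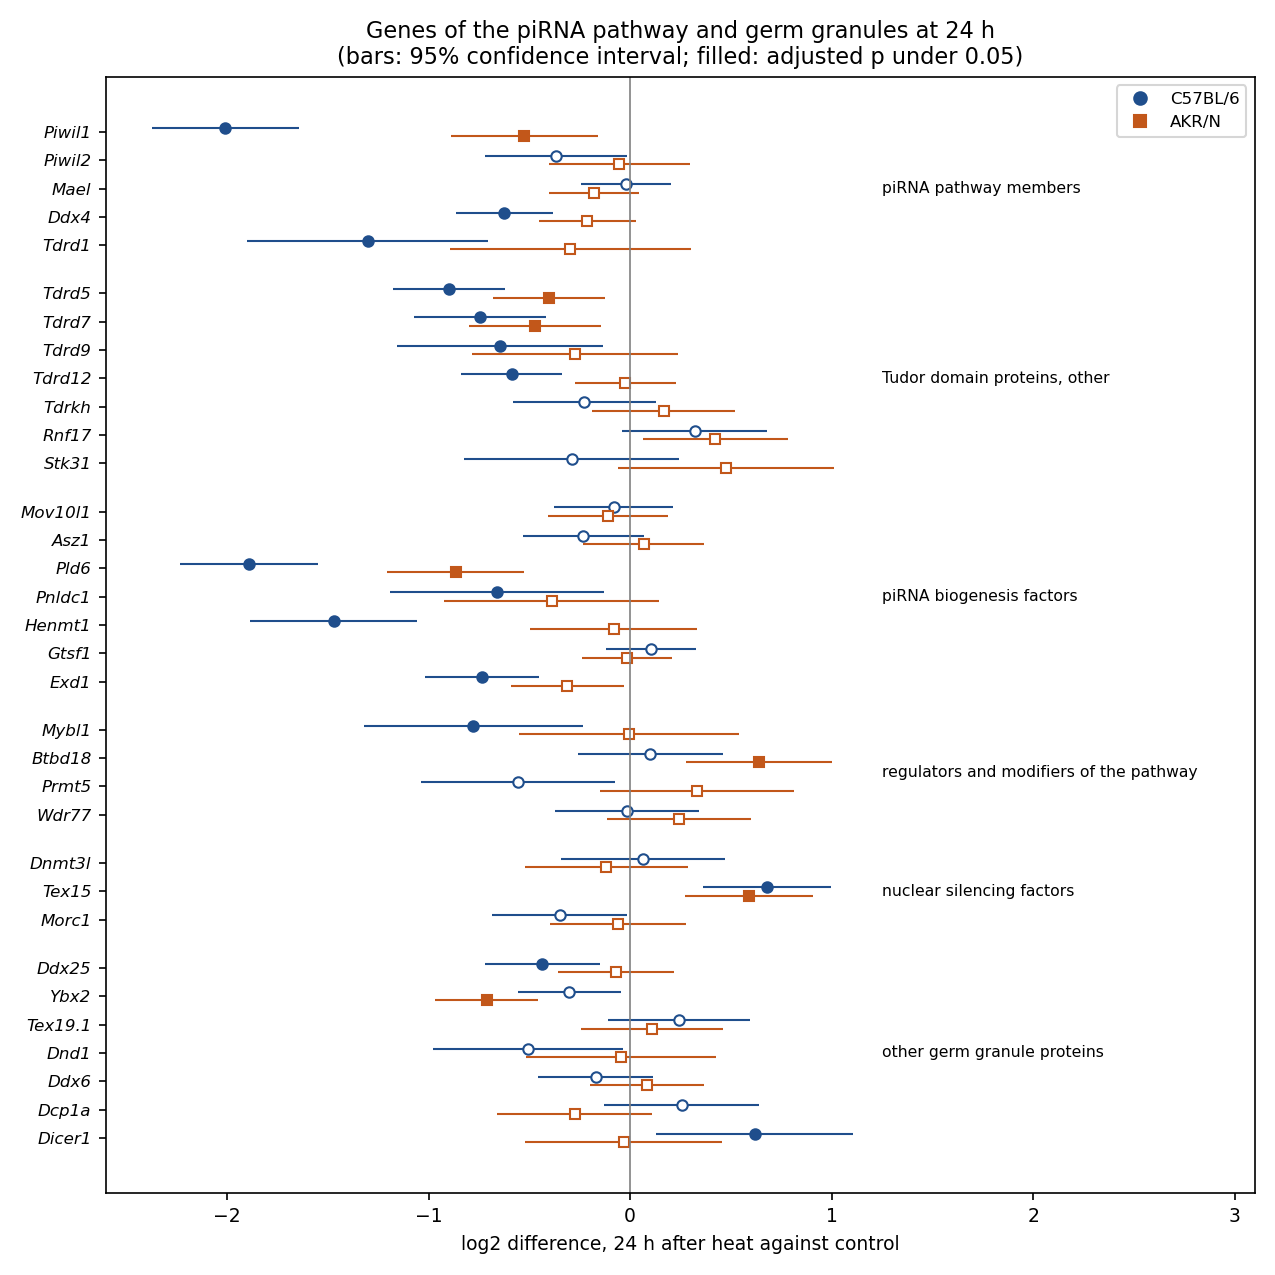
Log2 difference at 24 h from the control of the same strain for the 5 members and 28 other genes of the pathway, grouped by role, with 95% confidence intervals. C57BL/6 is drawn as circles and AKR/N as squares, filled where the adjusted p is under 0.05. Pld6 (-1.89) and Henmt1 (-1.47) lie nearest to Piwil1 (-2.01) in C57BL/6.

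Markers of germ cells and of other cells of the testis were read beside these genes. At 24 h, 21.4% of all genes were higher and 16.6% lower in C57BL/6, and 12.3 and 11.1% in AKR/N. Of 8 pachytene spermatocyte markers, 7 were on the chip with a probe set of their own. At 24 h 5 of them were lower and 1 higher in C57BL/6 (median -0.69), and 4 were lower and 0 higher in AKR/N (median -0.54), where Hspa2, Ccna1, Clgn and Tbpl1 fell in both strains. Their summed signal ran from 22390 to 23680 in C57BL/6 controls and from 19490 to 20380 at 24 h, and from 23940 to 24340 and from 20240 to 20510 in AKR/N. None of the 7 was near 0, with the lowest reading 79.8 for Mlh3. Pgk2 was the gene called higher in C57BL/6 (0.48), with 0.30 in AKR/N, not called. Ldhc, the brightest of the 7, differed by -0.02 and -0.14 and was not called. A difference of the 24 h change between strains was called by limma for 0 of these 7 genes (0 at an unadjusted p under 0.05), with a median of 0.27. Of 8 early meiotic markers limma called 0 in C57BL/6 at 24 h (1 at an unadjusted p under 0.05) and 1 higher in AKR/N. Their summed signal ran from 5988 to 6002 in C57BL/6 controls and from 4814 to 5038 at 24 h, and from 5318 to 5782 and from 5945 to 6207 in AKR/N. The sums, which follow the brightest genes, were lower at 24 h in C57BL/6 and higher in AKR/N, while the median change per gene was -0.08 and -0.06. Of 8 spermatogonial markers 2 (25%) were higher in each strain, a share near that of all genes in C57BL/6, and none of the summed signals overlapped between control (823 to 852 and 868 to 889.7) and 24 h (1044 to 1142 and 1162 to 1201). Stra8 was called in both strains (1.43 and 0.81), Sohlh2 only in C57BL/6 (0.63) and Zbtb16 only in AKR/N (0.82).

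Round spermatid markers were higher in 4 and lower in 1 of 8 in C57BL/6, where their sum ran from 16430 to 17550 in controls and from 20980 to 22320 at 24 h. In AKR/N 2 of the 8 were higher, with sums of 11950 to 14720 and 15520 to 16110. Elongating spermatid markers were higher in 2 of 8 in C57BL/6 (61860 to 66020 against 75260 to 76530) and in 1 in AKR/N (66690 to 68720 against 66340 to 67160). Sertoli cell markers were higher in 4 of 8 in C57BL/6 (6883 to 7299 against 10900 to 11340) and in 3 in AKR/N (8229 to 8693 against 10300 to 10410). Macrophage markers were higher in 4 of 8 in C57BL/6 (841 to 849 against 1316 to 1370) and in 3 in AKR/N (1193 to 1265 against 1696 to 1783). Of 6 Leydig cell markers measured, 3 were higher and 2 lower in C57BL/6 (1911 to 2151 against 2111 to 2425) and 2 were lower in AKR/N (4130 to 4279 against 2444 to 2555). No marker was at 0 on any array, and the dimmest readings were 6.31 for Gfra1, 8.56 for Prdm9 and 10.5 for C1qa. For the strain difference of the 24 h change, limma called 1 of the 6 Leydig cell markers, lower in AKR/N, and 0 on every other list. At an unadjusted p under 0.05 stood 4 Leydig, 3 spermatogonial, 3 early meiotic, 3 round spermatid, 2 Sertoli, 1 elongating spermatid and 0 macrophage markers. The list medians ran from -0.75 (Leydig cells) to 0.27 (pachytene spermatocytes). The part of these shifts in the changes of the members was not tested.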

How the data were processed

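RNA of whole testes was measured on 20 Affymetrix arrays. The deposited tables hold 1 signal intensity per probe set and array on a linear scale, as read from the values, since the software of the summary step is not given in the sources used here. Raw scanner images were not used here. The arrays had a common trimmed mean of 125 and were not scaled further. Of 45101 probe sets, 34945 named 1 gene in the chip annotation, 932 several and 9160 none, and 64 were controls. Each gene was read from its single-gene probe set with the highest mean, and genes whose highest group mean lay under the 40th percentile (log2 5.07) were left out. The other 15762 were fitted on log2(signal + 16) with limma 3.58.1 in R 4.3.3, with 1 mean per group and Benjamini-Hochberg adjustment, and calls were made at 0.05. The code was checked on simulated data.

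The members and gene lists were chosen with earlier results of these data known. Named were the 5 members, up to 6 other pathway genes per strain and direction with the largest called change at 24 h, Mybl1, and for each member the 3 genes with the most similar group means. Alternatives covered scaling, pseudocount, filter, probe set, samples in the fit, a replicate block and each array left out. Samples with the same replicate number deviated together in 4 of 45 pairs of groups (r over 0.1; median -0.01), so the numbers were not taken as pairs. The number of arrays limits the precision.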

Additional observations from a re-analysis of the deposited data

Results flagged for a closer look

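The change of Piwil1 from control to 24 h differed between AKR/N and C57BL/6 by 1.49 (SE 0.24, adjusted p = 0.0189 in limma), with 2 of 2 heated arrays below both controls in each strain. The same difference was 1.39 for Henmt1 (SE 0.27, adjusted p = 0.0271), the methyltransferase of piRNA ends, where 2 of 2 C57BL/6 arrays and 1 of 2 AKR/N arrays at 24 h lay below both controls. It was 1.03 for Pld6 (SE 0.22, adjusted p = 0.0404), the mitochondrial nuclease, with 2 of 2 arrays below the controls in each strain. Each was singled out because the test of the difference between strains passed. Of 27 alternatives, 22 kept this call for Piwil1, 19 for Henmt1 and 12 for Pld6. The beta-actin 3'/5' ratio moved in opposite directions in the strains between control and 24 h, and its part in these differences was not tested.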

How the results depend on the processing

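The 24 h calls of Piwil1, Ddx4 and Tdrd1 in C57BL/6 kept their direction and side of the threshold under all 28 alternatives run, and those of Piwil1 and Tdrd1 over 5 conditions under all 27. Among the 5 members in all comparisons and the 10 named pathway genes at 24 h, no call changed sign. The number of members called at 12 h in C57BL/6 (1) was 2 with median centring, quantile normalization, the mean of probe sets or only the C57BL/6 arrays, and 3 at a pseudocount of 64. In AKR/N a pseudocount of 64 gave 1 member at 10 h in place of 0. At 12 h in AKR/N the 2 members became 0 with median centring or only AKR/N arrays, and 1 at a pseudocount of 1, with no filter or with the replicate block. At 24 h in AKR/N the 1 member became 0 with median centring, a pseudocount of 1, the replicate block or only AKR/N arrays. Between 12 and 24 h, a pseudocount of 64 gave 2 members in C57BL/6 in place of 1 and 1 in AKR/N in place of 0, as did quantile normalization in AKR/N. The pathway genes called higher at 24 h in C57BL/6 (2) were 1 with median centring, quantile normalization, a pseudocount of 1, no filter, the replicate block or only C57BL/6 arrays. In AKR/N those called higher (2) were 1 with only AKR/N arrays, and those called lower (4) were 2 with median centring or only AKR/N arrays. The causes of these shifts were not tested.

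With 1 array left out in turn, the members called ranged from 0 to 1 at 10 h, 1 to 2 at 12 h and 3 to 3 at 24 h in C57BL/6, and from 0 to 3 at 12 h and 0 to 1 at 24 h in AKR/N. Between 12 and 24 h they ranged from 0 to 1 in each strain, for the strain difference at 24 h from 0 to 1, and over 5 conditions from 2 to 2. The pathway genes ranged from 1 to 2 higher and 6 to 10 lower in C57BL/6 and from 0 to 2 higher and 2 to 4 lower in AKR/N. A group left with 1 array is assumed to vary like the others. As the replicate numbers were not taken as pairs, the replicate block is given here as an alternative. Beside the counts above it ended the strain difference of Pld6 (adjusted p = 0.0551), a call that 12 of 27 alternatives kept.

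Over all genes tested, the number called moved by more than 1.5 times under some settings. At 10 h in C57BL/6 the 1764 genes called became 1039 with median centring and 1096 with only C57BL/6 arrays. At 10 h in AKR/N 414 became 201, 780 (pseudocount 64) and 64 (only AKR/N arrays), and at 12 h 1103 became 660, 1656 and 455. Between 12 and 24 h, 1515 became 995 and 979 in C57BL/6 and 1588 became 982 with only AKR/N arrays. For the strain difference at 24 h, 277 became 96 with median centring, 178 at a pseudocount of 1, 735 at 64, 155 with no filter and 157 with the block. With 1 array left out the 1764 genes called at 10 h in C57BL/6 ranged from 366 to 1956, the 414 at 10 h in AKR/N from 34 to 444, the 1103 at 12 h from 175 to 1301 and the 991 between controls from 440 to 1085. Between 12 and 24 h the 1515 in C57BL/6 ranged from 211 to 1859 and the 1588 in AKR/N from 252 to 1787. The 5989 genes called at 24 h in C57BL/6 ranged from 4097 to 6245, the 3010 at 12 h from 1198 to 3098 and the 3686 at 24 h in AKR/N from 1072 to 3958. Counts of 14 or fewer genes (8 h in each strain, and the strain differences at 10 and 12 h and from 12 to 24 h) stayed at 45 or fewer. With median centring the share of called genes that were higher moved from 50.9 to 30.2% at 12 h in C57BL/6 and from 49.2 to 37.4% between controls. Low signal limits the values of Tdrd1, Henmt1, Mybl1, Btbd18 and Dicer1.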

Other observations

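Over control and heated conditions together, 5 of the 28 other genes of the pathway were higher and 1 lower in AKR/N than in C57BL/6. The 6 called are 21.4%, below the 27.8% of all genes called, with 17.9% higher (beside 14.9%) and 3.57% lower (beside 12.9%). Exd1 was higher in AKR/N by 0.80 and Henmt1 by 0.64. In unheated testes 1 of the 28 was higher, Exd1 by 0.64 (adjusted p = 0.00992 in limma), and 1 lower, beside 6.29% of all genes called.

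Henmt1 lay above its controls in AKR/N at 8 h (121 and 139) and 10 h (127 and 140, against 72.2 and 77.4). Tdrd1 showed the same order in AKR/N, with 139 and 152 at 8 h and 187 and 154 at 10 h against 114 and 113. Neither gene was called by limma at these times, with adjusted p of 0.265 and 0.0636 for Henmt1 and of 0.733 and 0.347 for Tdrd1. The beta-actin 3'/5' ratio in AKR/N was 1.91 and 1.93 at 8 h and 1.87 and 1.99 at 10 h. In the AKR/N controls it was 2.92 and 2.39, and its part in these values was not tested.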
